A study of Mus musculus with 18 samples.

Results

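The genes of the mitochondrial respiratory chain and of the ATP synthase were followed across 18 RNA-seq libraries of MEFs (mouse embryonic fibroblasts). Members were protein-coding rows of the count table named mt-Nd, mt-Co, mt-Cytb or mt-Atp, Nduf a, b, c, s or v with a number, Sdha to Sdhd, Uqcr, Cox4 to Cox8 or Atp5, with 10 or more counts in at least 3 libraries. Of 55487 rows, 100 had such a name and 91 met the count minimum, 13 of them on the mitochondrial genome and 78 in the nucleus. Complex I was represented by 43 members, complex II by 4, complex III by 9, complex IV by 15 and complex V, the ATP synthase, by 19, and Cox7a2l, a gene of supercomplex assembly, was the remaining one. The 9 rows that missed the minimum reached at most 8 counts in any library. They were Cox4i2, Cox6a2, Cox6b2, Cox7a1, Cox7b2, Cox8b and Cox8c, Ndufa4l2 and an additional Atp5o row.

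The MEFs were a wild-type (WT) cell line grown in medium completed with S-FBS (Scm) or R-FBS (Rcm), fetal bovine sera that the study describes as leaving cells sensitive or resistant to ferroptosis, a form of cell death driven by lipid peroxidation. Cells stayed in Scm or in Rcm, or were moved from Scm to Rcm (S-Rcm) or from Rcm to Scm (R-Scm) and harvested 12 h or 24 h later, with 3 libraries in each of the 6 groups. The labels do not say whether the 3 libraries of a group came from separate cultures, so that the p values measure the spread between these libraries, which may be technical. All 6 groups share the cell line and the genotype and differ by serum and time. By their labels, the Scm and Rcm libraries are the start of the time course. No group was labelled as given fresh medium of the same serum for 12 h or 24 h. In comparisons of an exchange group with Scm or Rcm, the serum therefore changes together with the medium change, handling and time in culture. The part of each was not tested.

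The respiratory chain passes electrons from NADH (complex I) and succinate (complex II) through coenzyme Q, complex III and cytochrome c to oxygen at complex IV, and the proton gradient built on the way drives ATP synthesis by complex V. A small set of hydrophobic core subunits is transcribed from mitochondrial DNA as long polycistronic RNAs, and all other subunits, with the whole of complex II, are nuclear genes translated in the cytosol. In ferroptosis, mitochondria are known as a source of reactive oxygen species and as a site of coenzyme Q reduction.

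Total counts per library ran from 14534906 to 20313715. TMM scaling factors were between 0.963 and 1.03. All 9 fibroblast markers were present in every library, the lowest being Thy1 at 53.1 to 105 CPM (a gene's count scaled to a common library total, on TMM-scaled library sizes here and below), while the 4 muscle markers reached at most 0.351 CPM, the 4 epithelial ones 0.821 CPM (Krt8), the 3 endothelial ones 1.84 CPM (Kdr), the 3 adipocyte ones 2.46 CPM (Fabp4) and the 4 of blood and macrophages 4.9 CPM (Cd68), and Adgre1, Myod1, Myog, Adipoq and Sox10 had 0 counts in every library. Of the 3 neural markers, Tubb3 had 6.18 to 24.6 CPM and Map2 11 to 20.9 CPM. The part of other cells in the results was not tested. Replicate libraries differed by more than counting noise, the chi-square divided by its degrees of freedom being 9.61 to 42.7 over 18 pairs. Rcm replicate 3 stood apart from the other Rcm libraries in the mitochondrial genes, and the results that rest on it are given with and without it. In such bulk RNA, fewer cells of a kind and less RNA per cell cannot be told apart.

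Several members cannot be read without their sequences, because the nuclear genome holds near-identical copies. Copies of 7 mitochondrial members lie together on the minus strand of chromosome 1, where the annotation lists them as unprocessed pseudogenes. The sequences below, from the GENCODE M21 transcripts (GRCm38), show how little separates gene and copy. They were chosen for mt-Atp6, whose counts behave unlike those of the other pairs, and for the 2 pairs with any difference at all, and capitals mark the bases that differ. The first 120 bases of mt-Atp6 (chrM:7927-8046, plus strand) are those of Gm10925 (chr1:24614532-24614651, minus strand) without a difference:
mt-Atp6 and Gm10925: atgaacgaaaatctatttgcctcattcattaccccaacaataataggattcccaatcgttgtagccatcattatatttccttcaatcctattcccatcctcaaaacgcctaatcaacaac
For mt-Nd3 (chrM:9459-9518, plus strand) and Gm28438 (chr1:24613060-24613119, minus strand) the only difference over the 345 aligned bases is T3C, counted from the first base of the gene:
mt-Nd3: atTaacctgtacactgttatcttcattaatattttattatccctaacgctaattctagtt
Gm28438: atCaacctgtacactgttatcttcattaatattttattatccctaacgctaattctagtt
For mt-Co1 (chrM:6381-6440, plus strand, from base 1054 of the gene) and Gm29216 (chr1:24616138-24616197, minus strand) all 6 differences over 492 aligned bases fall at the start of the copy (T1056A, C1057T, A1059G, A1060G, C1062A and A1066T):
mt-Co1: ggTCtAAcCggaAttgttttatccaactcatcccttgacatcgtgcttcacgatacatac
Gm29216: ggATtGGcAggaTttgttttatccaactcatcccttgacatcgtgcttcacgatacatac

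Paired with their copies, mt-Co2 and Gm28661 (681 aligned bases), mt-Co3 and Gm28437 (783), mt-Nd4 and Gm28439 (876) and mt-Nd4l and Gm10222 (294) had 0 differences. A read from such a stretch cannot be assigned by its sequence, and how the counting treated reads with several alignments is not given in the sources used here. Where gene and copy have nearly the same length, they also had nearly the same count. The ratio of counts on the gene to counts on the copy was 0.892 to 1.08 for mt-Co2 over the 18 libraries, 0.851 to 0.982 for mt-Co3, 0.921 to 1.03 for mt-Nd4l and 0.751 to 0.962 for mt-Nd3. It was 2.25 to 2.82 for mt-Nd4 and 6.19 to 8.26 for mt-Co1, whose copies cover only a part of the gene.

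The ATP synthase subunit gene mt-Atp6 did not keep such a ratio. In 8 libraries the ratio of mt-Atp6 to Gm10925 was 0.875 to 0.98, and in the other 10 it was 0.159 to 0.242, with no library between. Scm had 24211, 3837 and 4150 counts on mt-Atp6 (replicates 1 to 3), S-Rcm 12 h had 4583, 5625 and 3137, and S-Rcm 24 h had 7268, 22384 and 5199. Rcm had 33302, 30780 and 4643 counts, R-Scm 12 h had 29685, 8610 and 37657, and R-Scm 24 h had 26070, 32042 and 5523. Libraries with the high ratio occur in 5 of the 6 groups, all except S-Rcm 12 h, and each of those 5 also holds at least 1 library with the low ratio. On the copy, the counts ran only from 17451 to 40364. In CPM, mt-Atp6 spanned 12.6-fold between the lowest and the highest library, whereas the other mitochondrial members spanned at most 2.58-fold. The neighbouring gene mt-Atp8 (chrM:7766-7969), which overlaps the start of mt-Atp6 (chrM:7927-8607), held 350 CPM in R-Scm 12 h replicate 2, where mt-Atp6 held 443 CPM, and 254 CPM in replicate 1, where mt-Atp6 held 1623 CPM. Other groups differed from this pair. In Rcm, mt-Atp8 held 404, 413 and 176 CPM (replicates 1 to 3), lowest where mt-Atp6 was low. In R-Scm 24 h it had 5053, 6494 and 3802 counts, again lowest in replicate 3. In Scm it held 208, 185 and 223 CPM, without such an order. The part of read assignment in the mt-Atp6 counts was not tested. For this reason, the mitochondrial share of counts and the median replicate SD are also given without mt-Atp6, and the mean log2 CPM by library leaves it out. The median fold changes of the mitochondrial members include it.

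**Figure D1:**
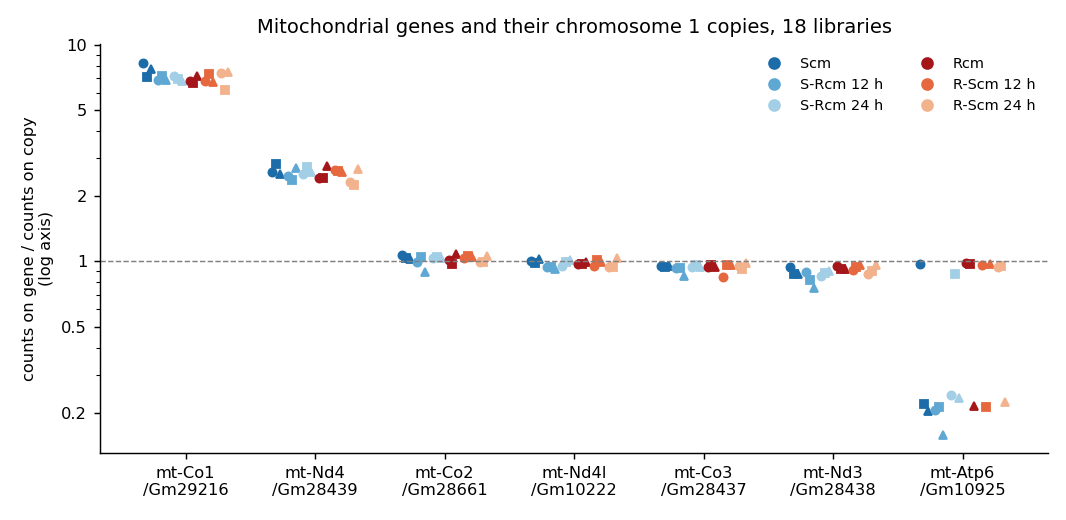
Counts on 7 mitochondrial genes divided by the counts on their chromosome 1 copies, on a log axis, with 1 point per library (18 per pair, colours for groups, circle, square and triangle for replicates 1 to 3). For mt-Atp6, 8 libraries lie at 0.875 to 0.98 and 10 at 0.159 to 0.242, and the other pairs form 1 cluster each.

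Per kilobase of merged exons, the mitochondrial members stood far above the nuclear ones: their mean levels ran from 407 CPM per kb (mt-Nd3) to 5627 CPM per kb (mt-Co1, the catalytic core of complex IV), with a median of 1394. Nuclear members ran from 0.884 CPM per kb (Ndufs3) to 451 CPM per kb (Atp5b, the catalytic beta subunit of the ATP synthase), with a median of 40.9. Merged exons of a nuclear gene can exceed the length of any single transcript, which lowers its level per kb and can change the order of genes. Without division by length, the median of the mean levels was 1461 CPM (mitochondrial) and 69.4 CPM (nuclear). Within complexes, the nuclear member with the highest level per kb was Ndufa2 in complex I (121), Sdhd in complex II (102), Uqcrfs1, the Rieske iron-sulphur protein, in complex III (116), Cox8a in complex IV (347) and Atp5b in complex V. The lowest were Ndufs3 in complex I, Sdhc in complex II (34.3), Uqcrc2 in complex III (33.5), Cox7c in complex IV (7.41) and Atp5l in complex V (2.33). The lowest of complexes I, IV and V are genes with a processed pseudogene that took more counts than the gene itself.

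Near-identical copies touched 24 of the 78 nuclear members (at least 95% identity over at least 150 bases and 50% of the shorter transcript), and in 10 of them the copies together held more counts than the gene. Of the 3 genes for subunit c, the rotor ring of the ATP synthase, Atp5g2 had 2052 counts summed over the 18 libraries against 76467 on the processed pseudogene Gm10175. Atp5g1 had 10075 counts against 23910 on Gm10039, and Atp5g3, for which no such copy was found, had a mean of 256 CPM. Ndufs3, a core subunit of complex I, had 590 counts against 3826 on Gm12251. Cox7c had 2592 against 33326 on Gm12338, Atp5l 4623 against 34246 on Gm10221, and Ndufa12 5375 against 24481 on Ndufa12-ps. The levels of these genes therefore give the reads assigned to the gene row, not the expression of the subunit. Cox5b and Cox5b-ps, which the annotation lists as protein-coding, are both members and are near-identical to each other. Cox5b-ps (9944 counts) is among the 10 only because its copy is the member Cox5b (15167 counts).

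Of the isoform pairs, the ubiquitous forms were counted and the tissue-restricted forms had few or no counts. Cox4i1 had a mean of 155 CPM, Cox6a1 220 CPM, Cox6b1 134 CPM, Cox7a2 105 CPM, Cox7a2l 52.9 CPM, Cox8a 215 CPM and Ndufa4 80.3 CPM. Their counterparts Cox4i2, Cox6a2, Cox6b2, Cox7a1 and Ndufa4l2, known from lung, heart and skeletal muscle, testis or hypoxic cells, had at most 8 counts per library, and Cox8b had 0 counts in all 18.

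The 13 mitochondrial members took 1.76% to 3.3% of all counts in a library, and the 78 nuclear members 0.759% to 1.05%. The mitochondrial share was 2.22%, 2.07% and 2.31% in the Scm libraries (2.2% ± 0.124, SD, n = 3). It was 3.06%, 3.2% and 1.9% in Rcm (2.72% ± 0.71, SD, n = 3). Thus 2 Rcm libraries lay above every Scm library and replicate 3 below all of them, and without Rcm replicate 3 the Rcm mean was 3.13%. The values were 2.59%, 3.07% and 3.3% for R-Scm 12 h, while R-Scm 24 h had 2.62%, 3.18% and 2.02%, S-Rcm 12 h had 1.95%, 2.29% and 1.76%, and S-Rcm 24 h had 2.57%, 2.22% and 2.13%. All 3 R-Scm 12 h libraries lay above every Scm library, while R-Scm 24 h, like Rcm, reached below the lowest Scm library. Without mt-Atp6 the means were 2.14% in Scm, 1.98% in S-Rcm 12 h, 2.24% in S-Rcm 24 h, 2.57% in Rcm, 2.84% (R-Scm 12 h) and 2.48% (R-Scm 24 h). On that measure the lowest R-Scm 12 h library (2.42%) was still above the highest Scm library (2.28%) and lay below the highest S-Rcm 24 h library (2.53%). Nuclear shares were 0.959% ± 0.0707 in Scm, 0.909% ± 0.082 in Rcm, 0.951% ± 0.103 in S-Rcm 12 h, 0.922% ± 0.0913 in S-Rcm 24 h, 0.836% ± 0.0831 for R-Scm 12 h and 0.914% ± 0.0433 for R-Scm 24 h (SD, n = 3 each), and every group overlapped with Scm. Mitochondrial rRNA made up 0.036% to 0.0955% of the counts.

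**Figure D2:**
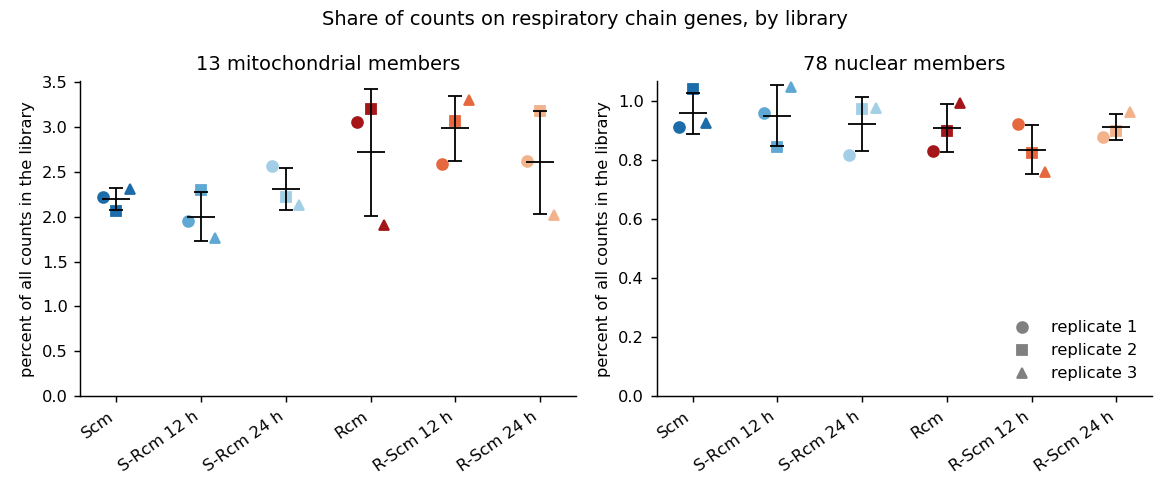
Percent of all counts on the 13 mitochondrial members (left) and on the 78 nuclear members (right), by group. Points are libraries (circle, square and triangle for replicates 1 to 3), and bars give the mean and SD of 3 libraries. The third Rcm library (1.9%) lies apart from the other Rcm libraries (3.06% and 3.2%).

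Cells kept in Rcm were compared with cells kept in Scm, to ask which genes differ with the serum itself. Of the 91 members 0 were DEGs (absolute log2 fold change above 0.58 and adjusted p under 0.05, edgeR), against 2.30% of all 15381 genes tested. Adjusted p under 0.05 alone also gave 0 members by edgeR, against 2.87% of all genes, with 7 members at an unadjusted p under 0.05 (16.2% of all genes), and DESeq2 on 18 libraries gave 1 (4.6% of all genes). The 13 mitochondrial members had log2 fold changes from 0.07 to 1.24, all above 0, with a median of 0.29, and the 78 nuclear members had a median of -0.09, with 59 of them below 0. The median over all genes tested was 0.01. With 1 library left out, the mitochondrial median ran from 0.16 (without Rcm replicate 2) to 0.47 (without Rcm replicate 3) and the nuclear median from -0.01 (without Rcm replicate 1) to -0.19 (without Rcm replicate 3).

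In this comparison the mitochondrial complex I subunit gene mt-Nd3, which shares its reads with Gm28438, had the lowest adjusted p. It had 102, 121 and 111 CPM in Scm and 174, 182 and 128 CPM in Rcm, so that the groups did not overlap, at a log2 fold change of 0.53 (SE 0.158, adjusted p = 0.0886, edgeR). DESeq2 on 18 libraries called it, with adjusted p under 0.05 but a fold under the limit. The complex IV subunit gene mt-Co2 had 1490, 1458 and 1521 CPM in Scm and 2210, 2219 and 1445 CPM in Rcm (log2 fold change 0.39, SE 0.166, adjusted p = 0.255, edgeR). The ATP synthase subunit gene mt-Atp8 had 208, 185 and 223 CPM in Scm and 404, 413 and 176 CPM in Rcm (log2 fold change 0.69, SE 0.293, adjusted p = 0.265, edgeR). For both genes the third Rcm library lay below all Scm libraries and the other Rcm libraries above them. Without Rcm replicate 3, 3 members were DEGs (mt-Nd3, mt-Atp8 and Ndufb1-ps) and mt-Co2 also had an adjusted p under 0.05, while 3.66% of all 15703 genes tested were DEGs and 4.86% had such an adjusted p. The lone mt-Atp6 value, a log2 fold change of 1.24 (SE 0.915, adjusted p = 0.52, edgeR), rests on 1 high library of 3 in Scm and 2 of 3 in Rcm.

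The nuclear members named here and below for an unadjusted p under 0.05 were chosen after their values were seen. Ndufb1-ps, which the annotation lists as a protein-coding complex I gene, had 21.9, 31 and 25.1 CPM in Scm and 39.1, 40.3 and 31.5 CPM in Rcm (log2 fold change 0.51, SE 0.154, adjusted p = 0.0977, edgeR). Atp5mpl, a small ATP synthase subunit, had 44.4, 64.6 and 52.5 CPM against 77.6, 74.4 and 63.2 CPM in Rcm (adjusted p = 0.155, edgeR). Cox5a (complex IV) and Uqcrh (complex III) had lower values in Rcm, with adjusted p values of 0.292 and 0.302 in edgeR. The libraries of both groups did not overlap for 7 members, 4 higher and 3 lower in Rcm, against 23.9% of all genes tested. Complex II, which is nuclear throughout, was among the steadiest: Sdha, the flavoprotein that oxidizes succinate, had 288, 304 and 293 CPM in Scm and 277, 293 and 311 CPM in Rcm. The other members of the complex, the iron-sulphur subunit Sdhb and the membrane anchors Sdhc and Sdhd, had log2 fold changes of -0.06 (SE 0.081), -0.01 (SE 0.083) and -0.23 (SE 0.14).

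The move of Rcm cells to Scm was read for changes after the exchange, in which serum, medium change and time are not separated. At 12 h 0 members were DEGs by edgeR, against 2.74% of all genes tested, and 0 had an adjusted p under 0.05, against 4.19%. There were 6 members at an unadjusted p under 0.05 (1 higher and 5 lower in R-Scm 12 h), against 17.6% of all genes, and DESeq2 on 18 libraries called 1, against 7.05%. All 13 mitochondrial members had a log2 fold change above 0, with a median of 0.1, and the nuclear median was -0.13, with 55 of 78 below 0. Without Rcm replicate 3 these medians were -0.07 and 0.01, so that both directions rest on that library.

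The lowest adjusted p of any member stood at Ndufa13, an accessory subunit of complex I also known as GRIM-19. It had 46.5, 47.8 and 52.7 CPM in Rcm, 38.1, 31.7 and 26 CPM in R-Scm 12 h, and then 39.8, 55.7 and 53.7 CPM in R-Scm 24 h. The R-Scm 12 h libraries lay below all Rcm libraries (log2 fold change -0.62, SE 0.172, adjusted p = 0.0543, edgeR), and below all R-Scm 24 h libraries (log2 fold change 0.64 for 24 h against 12 h, SE 0.172, adjusted p = 0.0914, edgeR). In DESeq2 on 18 libraries Ndufa13 was a DEG in both comparisons, as were 3.76% and 1.5% of all genes. In edgeR it became a DEG in the first when R-Scm 12 h replicate 1 was left out, and in the second when R-Scm 24 h replicate 1 was left out, where 2.67% and 1.97% of all genes were DEGs. Over all alternatives its adjusted p ran from 0.0109 to 0.234 in the first and from 0.0185 to 0.405 in the second. No near-identical copy of it was found. Atp5j2, Ndufb11, Atp5o and Cox8a had lower values in R-Scm 12 h than in Rcm at an unadjusted p under 0.05, with log2 fold changes of -0.32, -0.41, -0.3 and -0.45, and all 4 had higher values at 24 h than at 12 h, with 0.39, 0.44, 0.4 and 0.49. Their adjusted p values were between 0.155 and 0.302 in both comparisons by edgeR. Both comparisons use the same R-Scm 12 h libraries, for these 4 genes and for Ndufa13. A lower value at 12 h and a higher one at 24 h are therefore not separate results. Atp5o had its lowest value in R-Scm 12 h replicate 2 (104 CPM). With 1 library left out, its log2 fold change against Rcm ran from -0.4 to -0.12. On the mitochondrial side, mt-Nd6, the complex I gene on the other strand, whose reads cannot be told from antisense RNA without a stated strand setting, had 447, 481 and 285 CPM in Rcm and 455, 549 and 636 CPM in R-Scm 12 h (log2 fold change 0.43, SE 0.197, adjusted p = 0.258, edgeR). The libraries of Rcm and R-Scm 12 h did not overlap for 7 nuclear and 0 mitochondrial members, against 23.4% of all genes.

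At 24 h after the move to Scm, 0 members were DEGs by edgeR (0.377% of all genes) and 0 had an adjusted p under 0.05 (0.475%), with 0 at an unadjusted p under 0.05 (10.3%) and 0 called by DESeq2 (1.8%). The log2 fold changes of all 91 members lay between -0.21 and 0.24, with medians of -0.03 (mitochondrial) and 0.03 (nuclear), whose signs changed without Rcm replicate 1 or R-Scm 24 h replicate 3, and that of the first also without Rcm replicate 2 or R-Scm 24 h replicate 1 (-0.23 to 0.13 and -0.03 to 0.15 with 1 library left out). Between 12 h and 24 h in Scm, 0 members were DEGs by edgeR (0.774% of all genes) and 0 had an adjusted p under 0.05 (1.12%), with 8 at an unadjusted p under 0.05 (13.6%), and DESeq2 on 18 libraries called 1, Ndufa13 (2.86% of all genes).

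The opposite exchange, from Scm to Rcm, gave 0 DEGs among the members by edgeR at 12 h (0.858% of all genes) and 0 with an adjusted p under 0.05 (1.25%), with 4 at an unadjusted p under 0.05 (14.3%) and 0 called by DESeq2 on 18 libraries (3.32%). Here 12 of 13 mitochondrial members had a log2 fold change below 0, with a median of -0.15 (-0.24 to -0.08 with 1 library left out), and the nuclear median was -0.01, 0.07 without S-Rcm 12 h replicate 2 and likewise above 0 without Scm replicate 2. The mitochondrial genes mt-Nd6 and mt-Cytb, the cytochrome b of complex III, did not overlap with Scm. In mt-Nd6, Scm had 384, 381 and 395 CPM and S-Rcm 12 h had 295, 319 and 254 CPM (log2 fold change -0.42, SE 0.197, adjusted p = 0.349, edgeR). In mt-Cytb, Scm had 2983, 2915 and 3263 CPM and S-Rcm 12 h had 2404, 2893 and 2189 CPM. With the 2 groups fitted alone, mt-Nd6 had an adjusted p under 0.05 in edgeR and in DESeq2. In all, the groups did not overlap for 4 members, against 26.4% of all genes tested.

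Among nuclear members, Ndufa12 had 14.8, 16.1 and 15.7 CPM in Scm and 18.3, 15.8 and 37.3 CPM in S-Rcm 12 h, where 1 library stood far above the others, and Atp5l had 13, 12.8 and 13.2 CPM against 16.2, 15.5 and 21.5 CPM, without overlap. Their log2 fold changes were 0.61 (SE 0.227, adjusted p = 0.215) and 0.44 (SE 0.192, adjusted p = 0.3, edgeR). Summed with their near-identical copies, which hold most of the reads (an alternative chosen after seeing the data), the log2 fold changes were -0.01 for both. At 24 h in Rcm, 0 members were DEGs by edgeR (0.338% of all genes) and 0 had an adjusted p under 0.05 (0.403%), with 1 at an unadjusted p under 0.05 (8.11%) and 0 called by DESeq2 on 18 libraries (1.23%). That member was mt-Nd3, with 156, 136 and 141 CPM against 102, 121 and 111 CPM in Scm (log2 fold change 0.38, SE 0.158, adjusted p = 0.515, edgeR). The medians at 24 h were 0.07 (mitochondrial, 12 of 13 above 0) and -0.07 (nuclear, 59 of 78 below 0), the latter 0.01 without S-Rcm 24 h replicate 1. Between 12 h and 24 h in Rcm, 0 members were DEGs by edgeR (0.156% of all genes) and 0 had an adjusted p under 0.05 (0.215%), with 5 at an unadjusted p under 0.05 (9.26%) and 0 called by DESeq2 (1.07%).

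**Figure D3:**
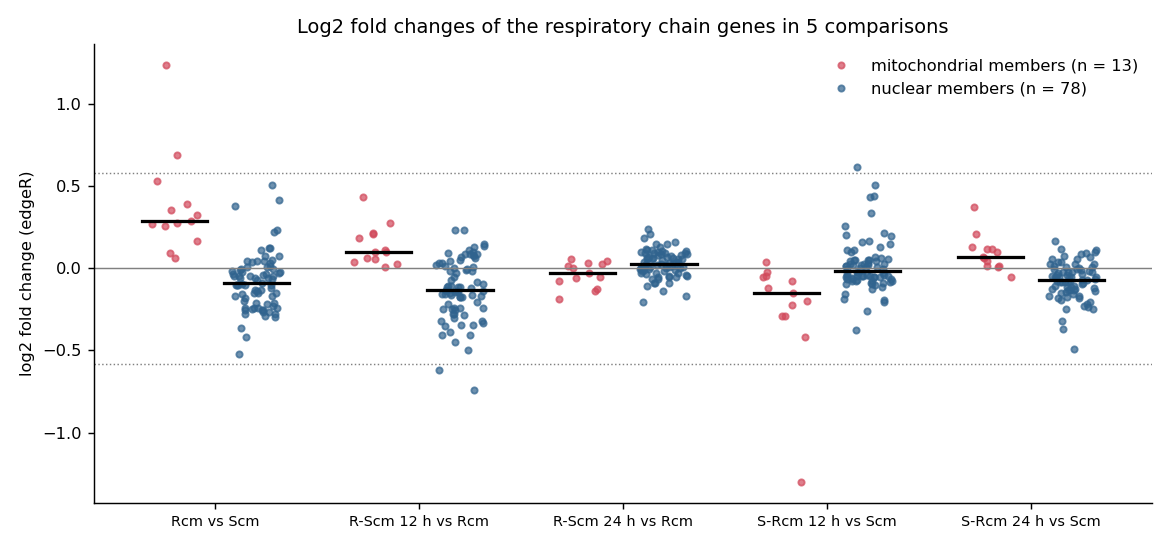
Log2 fold change (edgeR) of each of the 13 mitochondrial and 78 nuclear members in 5 comparisons. Each point is a gene, black bars are medians and dotted lines mark the fold limit of 0.58 in either direction. In Rcm against Scm the medians are 0.29 and -0.09, and in R-Scm 24 h against Rcm they are -0.03 and 0.03.

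Comparisons that name Rcm or Scm share those libraries, so that Rcm replicate 3 enters 3 of them. A direct test of whether the exchanges differ, the move to Scm minus the move to Rcm, gave 0 members with an adjusted p under 0.05 by edgeR at 12 h (2.22% of all genes), with 6 members at an unadjusted p under 0.05 (14.7%), and 0 at 24 h (1.43%), with 0 at an unadjusted p under 0.05 (12.6%). At 12 h, mt-Nd6 had the largest positive value of a mitochondrial member other than mt-Atp6 (0.85, SE 0.279, adjusted p = 0.144, edgeR). A test of any difference among the 6 groups gave 0 members by edgeR against 7.09% of all genes, with 12 members at an unadjusted p under 0.05, of which 6 are mitochondrial, against 23.3% of all genes. Its lowest adjusted p values were 0.0703 (mt-Nd3) and 0.0873 (mt-Nd6) in edgeR. Without Rcm replicate 3 it called 5 members (mt-Atp8, mt-Co2, mt-Nd2, mt-Nd3 and mt-Nd6), against 8.22% of all 15703 genes then tested, and without R-Scm 24 h replicate 1, 2 or 3 it called 3, 2 and 1 members, against 11.4%, 6.41% and 7.06% of all genes. DESeq2 was not run on these 3 tests.

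The SD of log2 CPM among the 3 libraries of a group was pooled over the 6 groups. This SD had a median of 0.27 over the mitochondrial members (0.262 without mt-Atp6) and of 0.207 over the nuclear members. It was 0.218 over all genes tested and 0.141 over the 2515 genes with a mean of at least 100 CPM, the class in which all mitochondrial members fall. By gene, the mitochondrial SD ran from 0.202 (mt-Cytb) to 0.406 (mt-Atp8), apart from mt-Atp6 at 1.29. By group, the mitochondrial median was 0.116 in Scm, 0.187 in S-Rcm 12 h, 0.168 in S-Rcm 24 h, 0.401 in Rcm, 0.242 for R-Scm 12 h and 0.337 for R-Scm 24 h. The nuclear median ran from 0.141 (Scm) to 0.221 (Rcm). Over all genes tested it was 0.131 in Scm, 0.167 in S-Rcm 12 h, 0.17 in S-Rcm 24 h, 0.193 in Rcm, 0.175 for R-Scm 12 h and 0.23 for R-Scm 24 h. Without Rcm replicate 3 (leaving out libraries here was chosen after seeing the data) the Rcm medians were 0.0549 over the mitochondrial members, 0.0838 over the nuclear members and 0.097 over all genes, and the pooled ones 0.215, 0.193 and 0.206, so that the high mitochondrial value in Rcm rests on that library. The mitochondrial median of R-Scm 12 h was 0.0602, 0.339 and 0.261 with replicate 1, 2 or 3 left out. That of R-Scm 24 h was 0.426, 0.21 and 0.286 in the same order.

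Spread among the nuclear members went with exon length, taken as the merged exons of all annotated transcripts of a gene. This can exceed the length of any single transcript. Ndufs1, the largest core subunit of complex I and the member with the most bases of merged exons (8086), had the lowest SD at 0.05. Its level lay between 142 and 171 CPM in all 18 libraries. Also low were Ndufa10 (0.07, 3331 bases), Uqcrc2 (0.07, 2552 bases), Sdhb (0.08, 2239 bases) and Sdhc (0.09, 3250 bases). The highest were Ndufs6 (0.57, 898 bases), Atp5k (0.54, 616 bases), Ndufa2 (0.5, 572 bases) and Uqcr11 (0.42, 641 bases). Ndufs6, a small complex I subunit with a pseudogene that held 626 counts to its own 8171, had 16.4, 21.6 and 47.7 CPM in Rcm and 13.8, 31.8 and 27.4 CPM in S-Rcm 24 h, which spans the range of all 18 libraries. Of these genes Ndufa10, Atp5k and Uqcr11 were named after their values were seen.

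Across the 54 nuclear members without a near-identical copy, log2 exon length and SD had a Pearson correlation of -0.65 (Spearman -0.66). Across all 78 nuclear members it was -0.55 (Spearman -0.56). Both are described across genes, which are not independent. Across the other 8095 genes with a mean of at least 20 CPM it was -0.09 (Spearman -0.08). For those members of under 700 bases the median SD was 0.281 (n = 5), for 700 to 1500 bases 0.228 (n = 19), for 1500 to 3000 bases 0.179 (n = 16) and for 3000 to 6000 bases 0.153 (n = 13). Other genes of those lengths had 0.236, 0.191, 0.163 and 0.144. With a per-library trend on exon length removed, a correction chosen after seeing the data, the nuclear median was 0.18 and the mitochondrial 0.292.

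**Figure D4:**
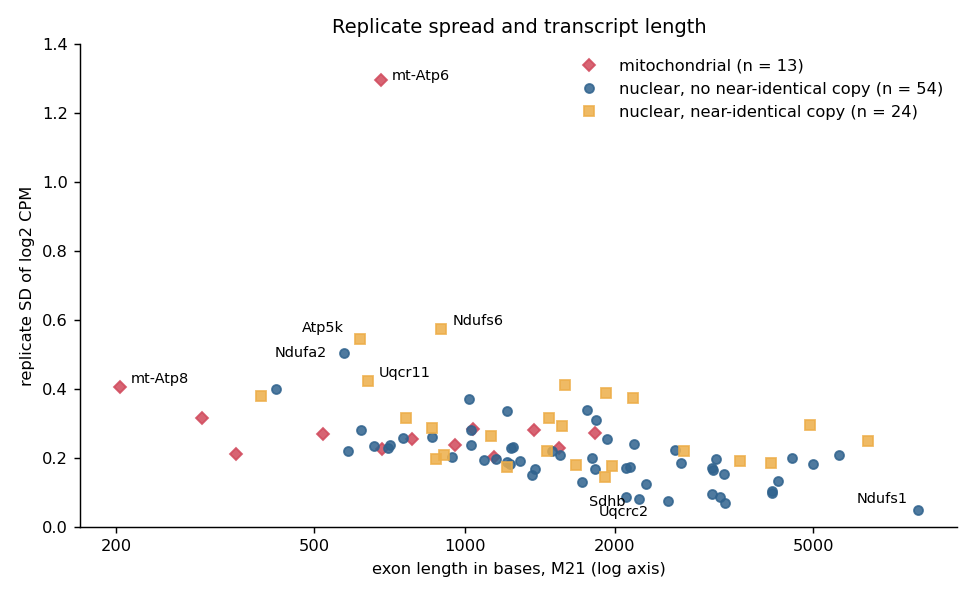
Replicate SD of log2 CPM (pooled over the 6 groups of 3) against exon length in bases on a log axis, with 1 point per member: mitochondrial (n = 13), nuclear without a near-identical copy (n = 54) and nuclear with one (n = 24). The SD is 0.05 for Ndufs1 at 8086 bases, 0.57 for Ndufs6 at 898 bases and 1.29 for mt-Atp6.

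Libraries with a higher mean over the mitochondrial members had a lower mean over the nuclear members. The mean log2 CPM of the 12 mitochondrial members without mt-Atp6 ran from 9.6 (S-Rcm 12 h replicate 3) to 10.5 (R-Scm 12 h replicate 3), and the mean of the 54 nuclear members without a copy was 6.65 and 6.16 in those libraries. Over the 18 libraries the correlation between both means was -0.78 (Spearman -0.79), and -0.78 without the 2 libraries farthest from the mitochondrial median. On deviations from the group means it was -0.76 (Spearman -0.74), so that it was present among replicates of the same group. Both means come from the same libraries and share their total, and no test was made of it.

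Other genes were compared with both sets in the same way. The mean of the 78 mitochondrial ribosomal protein genes, which are nuclear and whose products translate the mitochondrial transcripts, followed the nuclear members on deviations from group means (Pearson 0.94). The 8 shortest nuclear members (under 700 bases) ranged from 5.12 to 6.15 in mean log2 CPM and followed 279 other short genes (Pearson 0.95 on deviations), which ranged from 6.12 to 6.51. The 12 mitochondrial members correlated at -0.6 with these short genes and at 0.72 with 5992 other genes of at least 3000 bases, again on deviations. The part of transcript length or RNA quality in the fold changes of the members was not tested.

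**Figure D5:**
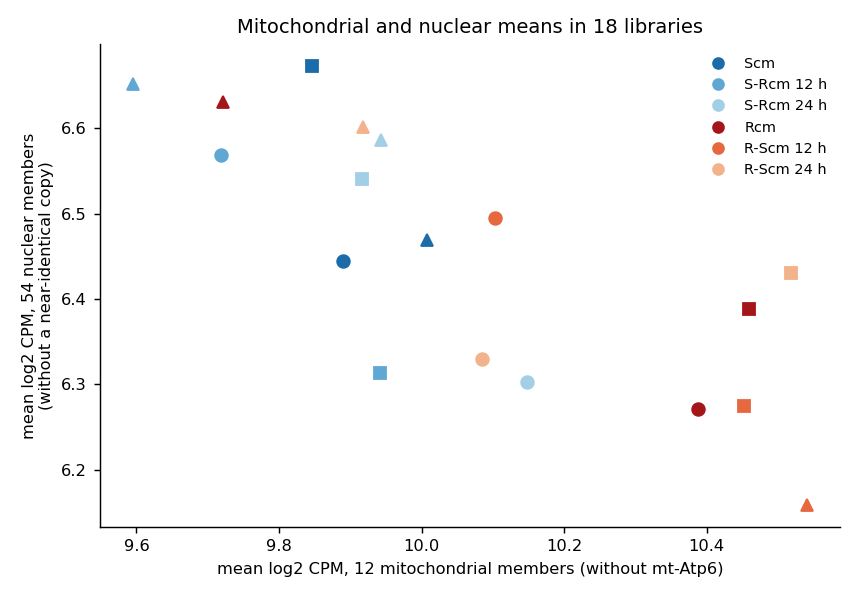
Mean log2 CPM of 12 mitochondrial members (without mt-Atp6) against that of 54 nuclear members (without a near-identical copy) in 18 libraries, coloured by group, with circle, square and triangle for replicates 1 to 3. The correlation is -0.78 over all libraries and -0.76 on deviations from group means, and Rcm replicate 3 lies at 9.72 on the horizontal axis against 10.4 and 10.5 for the other Rcm libraries.

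Genes that build and supply the chain were read from the same fit. In each comparison with Rcm or Scm, 0.338% to 2.74% of all 15381 genes tested were DEGs by edgeR. An adjusted p under 0.05 was found for 0.403% to 4.19% of all genes by edgeR, and for 189 to 1085 genes by DESeq2 on 18 libraries. An unadjusted p under 0.05 was found for 1247 to 2706 genes by edgeR. Of 45 assembly factors 0 were DEGs in the 5 comparisons with Rcm or Scm, and 1 had an adjusted p under 0.05 (Cox18, which inserts a complex IV subunit into the membrane, log2 fold change 0.52 in R-Scm 12 h, adjusted p = 0.0395, edgeR). Of 32 genes of mitochondrial genome expression tested, 0 were DEGs and 1 had an adjusted p under 0.05 (Pnpt1, the mitochondrial polynucleotide phosphorylase, log2 fold change 0.53 in Rcm against Scm, adjusted p = 0.0351, edgeR). Of the 78 mitochondrial ribosomal protein genes 1 had an adjusted p under 0.05 (Mrps30, log2 fold change 0.33 in R-Scm 12 h, adjusted p = 0.0275, edgeR) and 0 were DEGs. These 3 genes were named after their values were seen, and each lost its call in at least 8 of 20 alternatives, the omission of single libraries from either group among them, with adjusted p values of up to 0.15 (Cox18), 0.17 (Pnpt1) and 0.116 (Mrps30). DESeq2 on 18 libraries made 2, 5 and 6 calls in these lists. The 15 transcriptional regulators tested, the 24 genes of the TCA cycle and pyruvate entry and the 21 genes of electron carriers and coenzyme Q synthesis held 0 genes with an adjusted p under 0.05 by edgeR in those comparisons, with 2, 7 and 10 gene tests at an unadjusted p under 0.05, and DESeq2 on 18 libraries made 1, 3 and 0 calls.

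The list of 10 mitochondrial stress genes tested held 2 DEGs in the comparisons with Rcm or Scm. In each of these, 0.338% to 2.74% of all genes tested were DEGs. Ddit3, the stress transcription factor CHOP, had 48.6, 51.6 and 47.4 CPM in Scm and 23, 24.5 and 31.4 CPM in Rcm (log2 fold change -0.9, SE 0.13, adjusted p = 0.000913, edgeR). It fell also in S-Rcm 12 h (-0.7, adjusted p = 0.0134) and S-Rcm 24 h (-0.63, adjusted p = 0.0389, edgeR) and rose in R-Scm 24 h against Rcm (0.61, adjusted p = 0.0491, edgeR). Atf5, a transcription factor of the mitochondrial unfolded protein response, had 281, 285 and 269 CPM in Scm and 139, 115 and 130 CPM in S-Rcm 12 h (log2 fold change -1.12, SE 0.175, adjusted p = 0.00488, edgeR). In Rcm against Scm its log2 fold change was -0.67 (adjusted p = 0.047, edgeR). Its level was lowest after the move to Scm, with 115, 96 and 131 CPM in R-Scm 12 h against 155, 153 and 216 CPM in Rcm (log2 fold change -0.62, adjusted p = 0.0561, edgeR). It rose from 12 h to 24 h in Scm, to 150, 217 and 265 CPM (log2 fold change 0.89, adjusted p = 0.0192, edgeR). After the opposite exchange, Atf5 was likewise higher at 24 h, with 203, 225 and 229 CPM in S-Rcm 24 h. Its log2 fold change was 0.78 against S-Rcm 12 h (adjusted p = 0.0909) and -0.34 against Scm (adjusted p = 0.652, edgeR). The direct test between the exchanges at 12 h gave 0.5 (adjusted p = 0.359, edgeR). The first call of each gene held in all 20 alternatives. The others did not hold in every one: using no count filter, or leaving out a Scm replicate or Rcm replicate 1 or 2, ended that of Atf5 in Rcm (adjusted p up to 0.229), 5 of the 20 alternatives ended its rise between 12 h and 24 h in Scm (up to 0.342, with the 2 groups fitted alone), and single libraries or other settings ended those of Ddit3 in S-Rcm 12 h (up to 0.0711), S-Rcm 24 h (up to 0.185) and R-Scm 24 h (up to 0.496). Ddit3 and Atf5 are also induced by amino acid shortage and by endoplasmic reticulum stress, and the other 8 genes of the list were not called by edgeR in these comparisons, while DESeq2 on 18 libraries also called Hspa9.

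Promoter sequences of RefSeq (GRCm38.p6, from 250 bases before to 50 after the start) were matched to 64 of the nuclear members. On either strand, GCATGCGC, the core of the NRF1 motif, was present for 15.6% of them and for 3.05% of all 27025 genes in the table. The ETS motif CCGGAAG was present for 26.6% and 9.93%, and the YY1 motif AAGATGGC for 15.6% and 3.19%. These are matches of letters only, given as a description.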

How the data were processed

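Libraries were made with an mRNA-seq kit for paired-end Illumina sequencing from RNA of 18 MEF samples, and the authors mapped reads to GRCm38 with HISAT2. The deposited table holds raw counts per gene, made by the authors without normalization. The counting tool, its strand setting and its treatment of reads with several alignments are not given in the sources used here, so reads of overlapping genes (mt-Atp8 and mt-Atp6, mt-Nd4l and mt-Nd4) and of antisense RNA cannot be separated. Groups and replicate numbers came from the sample titles.

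From these counts, 15381 genes passed filterByExpr and were fitted with TMM scaling and the quasi-likelihood test of edgeR 4.0.16 (R 4.3.3) over the 18 libraries, with Benjamini-Hochberg adjustment over all genes tested, after a test on simulated data. DEGs were genes past both limits, 0.58 in log2 fold change in either direction and 0.05 in adjusted p. SE is the log2 fold change divided by the root of the F statistic. Library totals of 14534906 to 20313715 counts set the counting error. Near-identical copies were found with blastn 2.17.0 among GENCODE M21 transcripts. Replicate SD used log2 CPM with a prior count of 2.

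Alternatives were RLE, upper-quartile and total-count scaling, 3 other count filters, no mitochondrial rows, a replicate block, fits of 2 groups, DESeq2 1.42.0 and leaving out each library. Summing near-identical copies, removing a trend on exon length leaving out mt-Atp6 and leaving out libraries in the replicate spread were chosen after seeing the data. Members and gene lists were chosen with earlier results of these data known. Genes were named if they were mitochondrial members, complex II members, isoform sets, nuclear members or listed genes that passed the test, the highest and lowest per kb of each complex, or the highest and lowest in replicate SD, and any other name was chosen after its values were seen.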

Additional observations from a re-analysis of the deposited data

How the results depend on the processing

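Of the counts, medians and shares recomputed under other settings, 388 kept near their value and 24 did not, and with a library left out 230 did and 10 did not. A count that stayed at 0 was taken as kept, and so was a median that moved by less than the replicate SD. A change of sign could pass this rule, so the tally does not measure stable directions. With a library left out, the mitochondrial median of R-Scm 12 h against Rcm ran from -0.0674 to 0.2433. Members with an adjusted p under 0.05 in Rcm against Scm numbered 1 in DESeq2 on the 2 groups, 1 in DESeq2 on 18 libraries (mt-Nd3) and 2 with the length trend removed. In R-Scm 12 h against Rcm, 1 member (Ndufa13) was a DEG and 1 had an adjusted p under 0.05 with a minimum of 10 counts in every library, in DESeq2 on the 2 groups, in DESeq2 on 18 libraries and with the length trend removed. In S-Rcm 12 h against Scm 1 member (mt-Nd6) had an adjusted p under 0.05 with the 2 groups alone in edgeR and in DESeq2, and in S-Rcm 24 h against Scm 1 (mt-Nd3) in DESeq2 on the 2 groups. In R-Scm 24 h against R-Scm 12 h 1 member (Ndufa13) was a DEG and 1 had an adjusted p under 0.05 in DESeq2 on 18 libraries and with the length trend removed. The test over 6 groups called 2 with the length trend removed. Of these settings, the share of all genes called is given above only for DESeq2 on 18 libraries. No excess of members over all genes is therefore read from these counts. The cause of the differences between settings was not tested.

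With 1 library left out, DEGs in Rcm against Scm ranged from 0 to 3 and members with an adjusted p under 0.05 from 0 to 4, the highest without Rcm replicate 3. Both counts ranged from 0 to 1 in R-Scm 12 h against Rcm and in R-Scm 24 h against R-Scm 12 h, and the test over 6 groups from 0 to 5. Summed with near-identical copies, the log2 fold changes of Atp5l and Ndufa12 in S-Rcm 12 h against Scm turned to -0.0128 and -0.0068, and that of Atp5l between 24 h and 12 h in Rcm to 0.0112. The mitochondrial share in Scm was 2.41% of protein-coding counts. The mitochondrial replicate SD was 0.116 in Scm alone and 0.401 in Rcm alone, and the nuclear one 0.141 in Scm alone and 0.170 in R-Scm 12 h alone.

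With a replicate block, from the number in the title or that in the description, which differ in 3 groups, 0 members were called in any comparison by edgeR. The main fit used no pairing by these numbers. Deviations of same-numbered libraries correlated at -0.196 to 0.346 by title and -0.208 to 0.123 by description. Libraries with unlike numbers correlated at -0.219 to 0.212 by title and -0.219 to 0.346 by description. Rcm replicate 3 and R-Scm 24 h replicate 3 gave the 0.346, and the other same-numbered title pairs of these groups had 0.0845 and 0.159. A shared batch was not tested. Near-identical copies, unknown read assignment and 3 libraries per group limit what can be read from single members.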
